A study of Mus musculus with 12 samples.

Results

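The autophagy core genes described here are 10 genes, *Ulk1*, *Becn1*, *Atg5*, *Atg7*, *Gabarap*, *Gabarapl1*, *Gabarapl2*, *Map1lc3a*, *Map1lc3b* and *Sqstm1*, out of 54532 genes measured in intestinal crypts and in colon tumors of mice. They were chosen by measured values of these same libraries, since *Gabarap* was higher in the knockouts of both tissues and *Ulk1* was lower in the knockout tumors. The differences between genotypes are therefore given for these genes as a description, with no test. All 10 genes were found in the tables of both tissues, and all 10 passed the filter on low values in both.

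Macroautophagy encloses cytoplasm in a double membrane, the autophagosome, and delivers it to lysosomes. The ULK1 kinase starts the process, a lipid kinase complex with Beclin-1 marks the membrane, conjugation enzymes such as ATG7 and ATG5 attach the ubiquitin-like ATG8 proteins (the GABARAP and LC3 families) to it, and receptors such as p62 carry cargo to these proteins. In the intestinal epithelium the pathway is known for its part in the granules of Paneth cells, in the handling of bacteria and in the upkeep of stem cells.

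The question behind these libraries was what an intestinal enhancer of *Ctnnb1*, named ieCtnnb1, does in normal epithelium and in tumors driven by loss of APC. RNA-seq was made of small intestinal crypts from 3 adult wild-type mice and 3 adult homozygous ieCtnnb1 knockout mice (*Ctnnb1Δi.enh*, labelled ieCtnnb1KO), and of colon tumors from 3 *ApcMin/+* mice and 3 *Ctnnb1Δi.enh;ApcMin/+* mice (labelled APCmin/+ and APCmin/+;ieCtnnb1KO) at 5 months of age. All mice were on a C57BL/6 background and untreated, and every tumor library, controls included, carried the *ApcMin* allele. The deletion was made in the germline by CRISPR/Cas9, so that cells of every tissue carried it, and each library came from bulk tissue. Crypts were released with EDTA and passed through a filter that holds back villi, whereas tumors were harvested as tissue. The authors deposited FPKM, a fragment count divided by the length of the gene and by a depth factor of the library, in a separate table for each tissue. Recovered from these values, the depth was 14457896 to 16074777 fragments per crypt library and 14648696 to 16156712 per tumor library. The tables were scaled separately, so levels in crypts and tumors are set side by side and not tested against each other. Fewer cells of a type and less RNA per cell cannot be told apart in these bulk libraries.

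*Ctnnb1*, the target of the deleted enhancer, had an FPKM of 121, 134 and 123 in wild-type crypts against 102, 104 and 105 in knockout crypts (log2 fold change -0.28, SE 0.118). In tumors it was 299, 363 and 358 in the controls against 279, 248 and 250 in the knockouts (log2 fold change -0.39, SE 0.128). All 3 knockouts lay below all 3 controls in each tissue.

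The crypt label was checked against marker genes: FPKM summed over 5 epithelial markers was 2850 to 3580, and the 6 Paneth cell and 6 enterocyte markers were all present, whereas 5 fibroblast, 5 smooth muscle and 4 endothelial markers summed to at most 5.63, 0.923 and 0.883. Of the other lists, the sum for 4 stem cell markers was 561 to 1010, for 5 goblet cell markers 3120 to 5700, for 6 T cell markers 327 to 433 and for 6 myeloid markers 2.49 to 5.66. Wild-type replicate 3 stood apart with 62200 for Paneth cells, where the others had 21300 to 32200, and it also had the highest enterocyte sum (8780, beside 3010 and 4520 in wild-type replicates 1 and 2 and 6710, 5010 and 7650 in the knockouts). Stomach transcripts, led by *Pgc*, summed to 38 and 37.5 in wild-type replicates 1 and 2 and to at most 2.73 in the other libraries. The colonocyte sum was higher in all knockout crypts (77.7, 74.8 and 74.2 against 105, 104 and 137), carried by *Car4*. Of its 5 genes, *Car4* and *Slc26a3* were higher without overlap, *Car1* and *Aqp8* were near 0, and *Saa1* lay the other way with overlap (0.991, 12.5 and 20.5 against 2.03, 1.64 and 3.3). The sum for B and plasma cell markers was lower in all knockouts, at 26.7, 27.9 and 28.3 against 20.1, 26.4 and 20.6. The gap between 26.7 and 26.4 was narrow, and 1 of 4 genes, the most abundant one *Jchain*, was lower without overlap. The Paneth cell list, led by *Defa24*, had 2 of 6 genes lower in all knockouts, *Lyz1* and *Mmp7*.

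In tumors, the epithelial sum was 3150, 3090 and 2800 in controls against 3610, 3560 and 3680 in knockouts, with 5 of 5 genes higher in every knockout and *Krt8* the most abundant. Goblet cell markers were 753, 638 and 640 against 1190, 1720 and 1370, also with 5 of 5 genes without overlap and led by *Tff3*. Sums were likewise higher in every knockout for colonocytes (124, 106 and 103 against 162, 304 and 207; 2 of 5 genes, led by *Car1*), fibroblasts (340, 213 and 205 against 342, 444 and 355; 3 of 5, led by *Col1a1*), smooth muscle (122, 125 and 102 against 142, 128 and 139; 2 of 5, led by *Acta2*) and endothelium (30.9, 29 and 26.1 against 33.6, 31.9 and 31.1; 1 of 4, *Pecam1*). The most abundant endothelial gene, *Cdh5*, overlapped (log2 fold change 0.04), and *Kdr* (-0.09), *Des* (-0.18) and *Cnn1* (-0.27) of these lists were below 0. Sums were lower for myeloid cells (225, 449 and 324 against 223, 140 and 208), where *S100a8* and *S100a9* made the difference and *Csf1r* (0.08), *Cd68* (0.02), *Itgam* (0.02) and *Adgre1* (0.31) overlapped, and for stomach (5.33, 5.19 and 5.56 against 4.07, 4.96 and 2.99; 1 of 6, led by *Atp4a*, with *Gkn2* and *Muc5ac* near 0). Groups overlapped for stem cells (62.2 to 90.7), Paneth cells (1410 to 4420), enterocytes (0.845 to 6.4, with *Fabp1*, *Sis* and *Lct* near 0), T cells (8.15 to 12) and B and plasma cells (72.5 to 259). Marker sums of both tissues were taken from FPKM as deposited, without rescaling. Narrow gaps, such as 340 against 342 for fibroblasts, may not hold under another scaling. The part of these cell types in the differences of the autophagy genes was not tested.

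The autophagy genes spanned a wide range of levels, and *Gabarap* had the most abundant transcript per length in all 4 groups. In wild-type crypts the order of mean FPKM was *Gabarap* (101), *Sqstm1* (38.7), *Gabarapl2* (20.2), *Atg5* (14.9), *Map1lc3b* (11), *Becn1* (11), *Map1lc3a* (8.32), *Gabarapl1* (5.97), *Ulk1* (5.58) and *Atg7* (4.49). The top 4 genes were each apart from the next over the 3 libraries, the neighbours from *Map1lc3b* to *Ulk1* overlapped, and *Ulk1* was apart from *Atg7*. In *ApcMin/+* tumors *Gabarap* (86.3) and *Sqstm1* (82.6) overlapped at the top and *Map1lc3a* (35.9) came next, apart from both neighbours. *Map1lc3b* (22.8), *Ulk1* (22.8), *Gabarapl1* (21.2) and *Gabarapl2* (20.5) formed a run of overlapping neighbours. *Atg5* (15.5) and *Becn1* (13.2) overlapped below them, and *Atg7* (6.68) was again the lowest. The genotype kept most of this order. In knockout crypts, the exchange was between *Ulk1* (5.91) and *Gabarapl1* (5.22), which overlapped in both genotypes. In knockout tumors, *Ulk1* (18.6) stood below *Gabarapl1* (23.7), *Gabarapl2* (23.6) and *Map1lc3b* (23.5) and was apart from its neighbours *Map1lc3b* and *Atg5* (17.1). Values rested on 95 fragments in the thinnest case (*Map1lc3a* in crypts) and on 5653 in the deepest (*Sqstm1* in tumors).

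**Figure D1:**
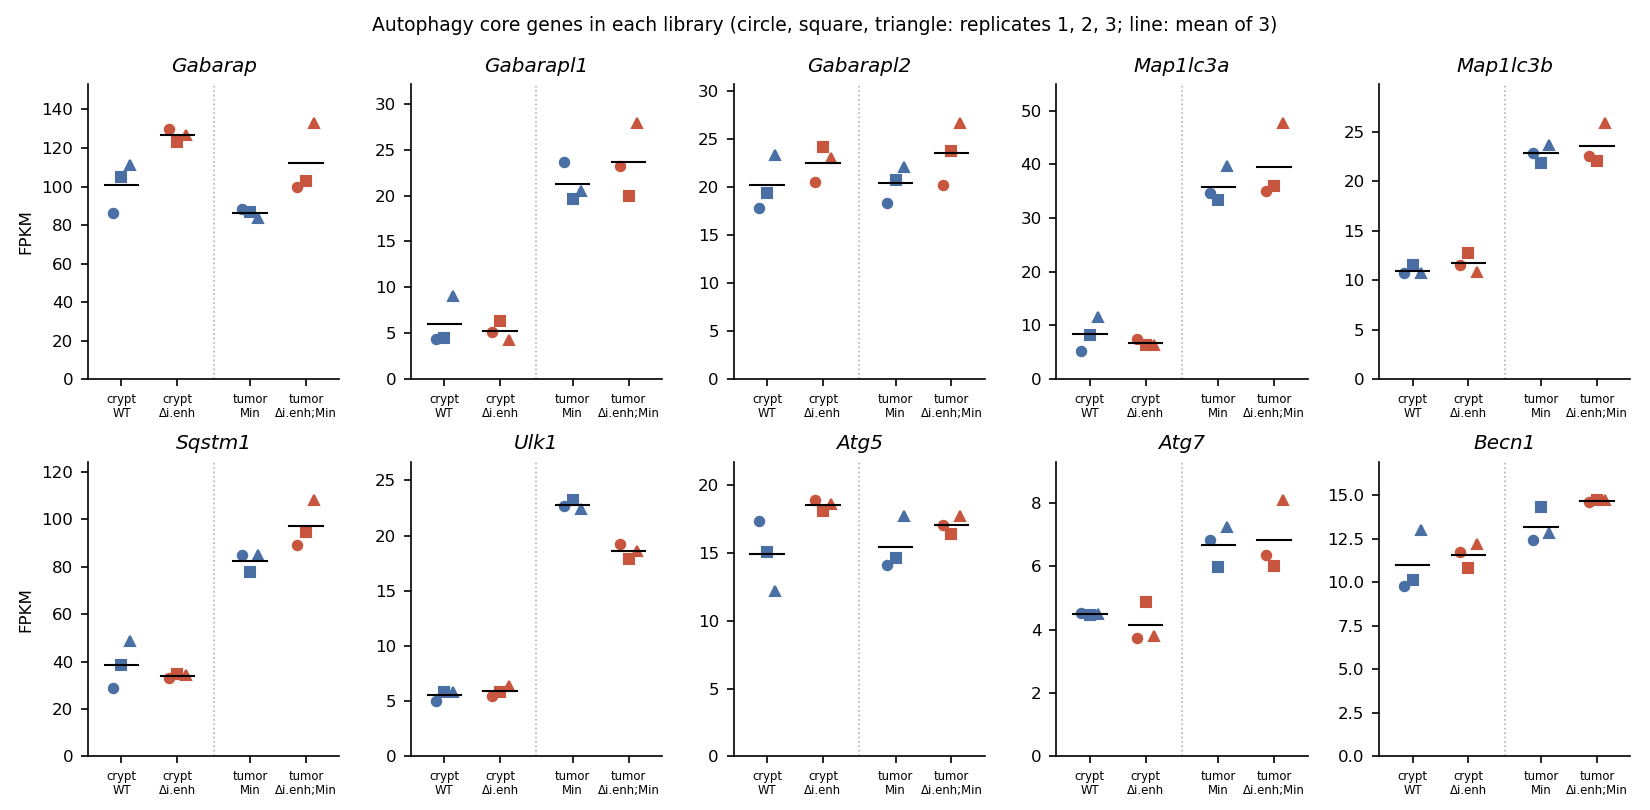
FPKM (y axis) of the 10 autophagy core genes in each library, with crypts left and tumors right of the dotted line and controls in blue and knockouts in red; symbols mark replicates 1 to 3 and lines the mean of 3. *Gabarap* lies higher in the knockouts of both tissues, and *Ulk1* lies lower in knockout tumors at 17.9 to 19.2 against 22.4 to 23.2.

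Over all genes, limma found 0 of 14176 tested genes in crypts and 0 of 16743 in tumors with an adjusted p under 0.05 (0% each), and the lowest adjusted p was 0.728 and 0.269. At an unadjusted p under 0.05 there were 829 genes in crypts, 494 higher (3.48%) and 335 lower (2.36%) in knockouts, and 2421 in tumors, 1417 higher (8.46%) and 1004 lower (6%). With voom the adjusted counts were also 0, with 805 and 2541 genes at the unadjusted threshold. The crypt counts moved to 3 at the adjusted threshold without wild-type replicate 3, and to 458 without knockout replicate 1 and 1341 without wild-type replicate 1 at the unadjusted threshold. Without control replicate 2 or 3 the unadjusted count in tumors was 1396 or 1428. The share of higher genes also moved with scaling, from 59.6% to 39.7% in crypts when libraries were rescaled without the 50 highest genes. In tumors it moved from 58.5% to 44.2% by that rescaling, to 44.4% with totals made equal and to 46.4% after quantile normalization.

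Against this background, the log2 fold change was above 0 for 6 autophagy core genes and below 0 for 4 in crypts, with a median of 0.08 beside 0.01 for all tested genes. This median was 0.04 after quantile normalization, 0.03 when rescaled without the 50 highest genes, 0.01 without wild-type replicate 1 and 0.15 without wild-type replicate 3, where 9 genes were above 0. All 3 knockouts lay above all 3 controls for 2 of the 10 (*Gabarap* and *Atg5*), where 6.79% of all tested genes did so, and below them for 0, where 5.15% did so. In tumors 9 genes were above 0 and 1 was below, with a median of 0.15 beside 0.01, although *Map1lc3b* and *Atg7* turned below 0 under some scalings (-0.04 with quantile normalization and -0.02 with equal totals, respectively). The tumor median was 0.05 after quantile normalization, 0.10 with equal totals or without the 50 highest genes and 0.08 with the gene-length trend removed, and it was 0.06 without knockout replicate 3, with 6 genes above 0 and 4 below. Knockouts lay above all controls for 3 (*Gabarap*, *Sqstm1* and *Becn1*), where 11.4% of tested genes did so, and below for 1 (*Ulk1*), where 10.6% did so. Since the contrast had chosen the genes, nothing is read from these counts.

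**Figure D2:**
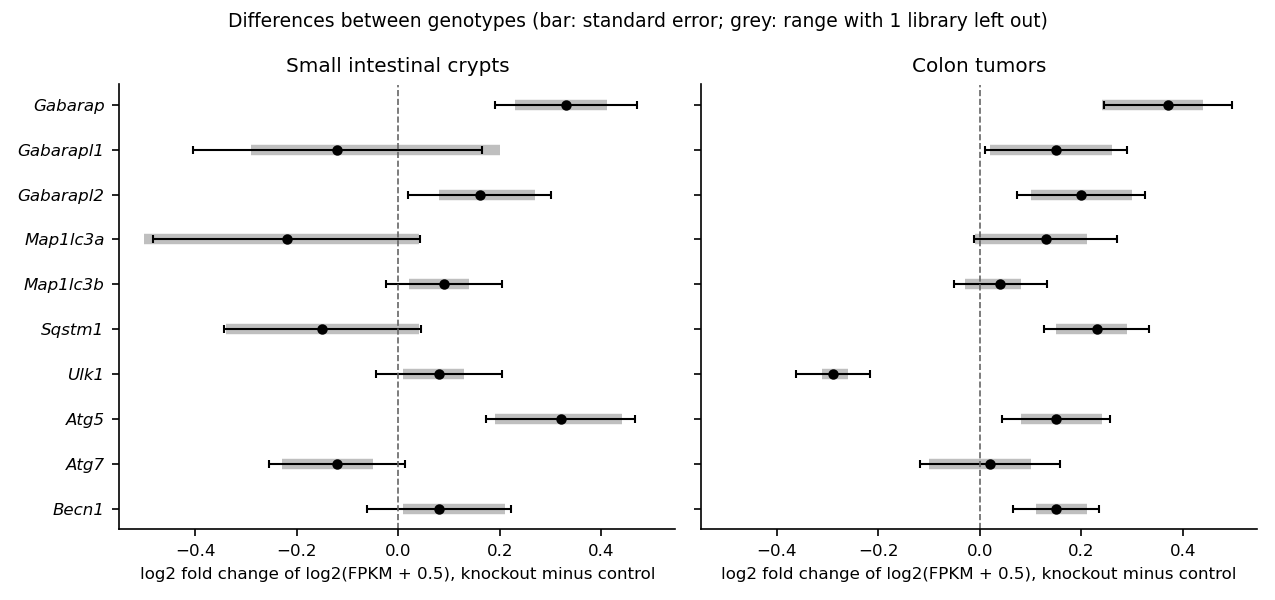
Log2 fold change of each autophagy core gene (x axis, knockout minus control on log2(FPKM + 0.5)) in crypts and tumors; points are estimates over 3 against 3 libraries, black bars the SE, and grey bars the range when any 1 library is left out. *Gabarap* lies above 0 in both tissues (0.33 and 0.37) and *Ulk1* below 0 in tumors (-0.29), each over the whole grey range. Each was a value that chose the genes, and its groups did not overlap, so leaving out 1 library could not change its sign.

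*Ulk1* (ENSMUSG00000029512; GRCm38 chr5:110784488-110810097, minus strand) encodes the kinase that starts autophagosome formation when nutrients run low. In crypts its FPKM was 5, 5.87 and 5.88 in wild-type and 5.46, 5.86 and 6.42 in knockout libraries. These groups overlapped, with wild-type replicate 1 the lowest library and knockout replicate 3 the highest. Its log2 fold change in crypts, 0.08 (SE 0.124), was between 0.01 (without wild-type replicate 1) and 0.13 (without knockout replicate 1). In tumors FPKM was 22.7, 23.2 and 22.4 in *ApcMin/+* and 19.2, 17.9 and 18.6 in *Ctnnb1Δi.enh;ApcMin/+* libraries. Every knockout tumor lay below every control tumor, and the gap between the groups was wider than the spread within either (22.8 ± 0.421 and 18.6 ± 0.657, SD, n = 3 each). The mean of the knockouts was 81.6% of that of the controls, with a log2 fold change of -0.29 (SE 0.073). This was one of the values that chose the genes. The difference was between -0.31 and -0.26 whichever library was left out and between -0.37 and -0.25 over all 17 alternative settings. The groups remained apart under each rescaling. These ranges describe a value that chose the genes and are no support for it. The tumor values rested on 1864 to 2486 fragments and the crypt values on 502 to 637.

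The promoters of *Ulk1* and *Gabarap* are shown because these are the genes whose values led to the choice of the whole list. Both are 300 bases from RefSeq (GRCm38.p6), from 250 bases before to 50 after the RefSeq start, 5′ to 3′ on the strand of the gene: chr5:110810032-110810331 (minus strand) and chr11:69991120-69991419 (plus strand). Promoters were found for 8 of the 10 genes, with none for *Map1lc3a* and *Becn1*. Capitals mark GGGCGG, the GC box, or its other-strand form CCGCCC.
Ulk1: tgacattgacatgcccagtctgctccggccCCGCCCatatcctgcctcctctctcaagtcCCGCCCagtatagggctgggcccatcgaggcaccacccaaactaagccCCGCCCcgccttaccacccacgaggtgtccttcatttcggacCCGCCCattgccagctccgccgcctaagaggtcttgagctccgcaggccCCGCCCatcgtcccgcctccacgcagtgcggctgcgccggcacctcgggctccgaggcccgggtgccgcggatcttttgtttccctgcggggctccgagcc
Gabarap: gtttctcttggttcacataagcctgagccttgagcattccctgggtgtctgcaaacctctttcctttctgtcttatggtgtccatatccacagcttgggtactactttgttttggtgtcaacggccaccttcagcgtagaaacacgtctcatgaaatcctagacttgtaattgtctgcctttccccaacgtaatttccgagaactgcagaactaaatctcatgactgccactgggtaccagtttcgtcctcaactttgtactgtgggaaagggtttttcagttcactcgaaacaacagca
The *Ulk1* window held 5 GC boxes, 26 CG pairs and 68% G and C. The *Gabarap* window held no match to any motif searched, 7 CG pairs and 45.7% G and C, beside a median of 52.7% over all promoters, and its RefSeq start lies 227 bases into the gene as GENCODE M21 draws it. Searched on both strands, GGGCGG occurred in 35.7% of 32851 mouse promoters and in 6 of the 8 found here (*Ulk1*, *Atg5*, *Gabarapl1*, *Gabarapl2*, *Map1lc3b* and *Sqstm1*). CACGTG, the E-box core of the lysosomal CLEAR element, was in the windows of *Atg5* and *Atg7* (7.15% of all promoters), the latter drawn from a RefSeq start that lies 27999 bases inside the GENCODE M21 gene, and CTTTGA, the core of TCF/LEF sites, in that of *Gabarapl1* (16%). TGTTTAC, a forkhead core, and TGACTCA, an AP-1 site, were in 0 of the 8, beside 3.65% and 5.2% of all promoters.

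*Becn1* (ENSMUSG00000035086; chr11:101285952-101302286, minus strand) encodes Beclin-1, a subunit of the class III PI3-kinase complex that marks the forming membrane. Its FPKM in crypts was 9.78, 10.1 and 13 in wild-type and 11.7, 10.8 and 12.2 in knockout libraries, and the groups overlapped because wild-type replicate 3 was the highest of all. This gave a log2 fold change of 0.08 (SE 0.141), between 0.01 without wild-type replicate 1 and 0.21 without wild-type replicate 3. In tumors FPKM was 12.4, 14.3 and 12.8 in controls and 14.6, 14.7 and 14.7 in knockouts. The knockouts were nearly equal and all above the controls, the nearest of which was replicate 2, with a log2 fold change of 0.15 (SE 0.0855). With equal totals, quantile normalization or rescaling without the 50 highest genes this value was 0.11 and the groups overlapped. Of the exon bases of *Becn1*, 43.9% are shared with *Cntd1* on the opposite strand, and as the use of strand in counting is not stated, reads of the pair cannot be told apart there. *Cntd1* itself had a mean FPKM of 0.163 in crypts and 0.222 in tumors.

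*Atg7* (ENSMUSG00000030314; chr6:114643097-114860614, plus strand) encodes the activating enzyme of both conjugation reactions of autophagy. Crypt FPKM was 4.51, 4.46 and 4.5 in wild-type and 3.73, 4.87 and 3.8 in knockout libraries. The wild-type libraries were nearly equal and the knockouts lay on either side of them, replicate 2 above and replicates 1 and 3 below. In crypts the log2 fold change was -0.12 (SE 0.134), from -0.23 without knockout replicate 2 to -0.05 without knockout replicate 1. Tumor FPKM was 6.83, 5.98 and 7.23 in controls and 6.34, 6.02 and 8.08 in knockouts, which overlapped with knockout replicate 3 the highest. A log2 fold change of 0.02 (SE 0.138) had no settled sign: it was -0.10 without knockout replicate 3, 0.10 without knockout replicate 2, and -0.02 with equal totals.

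*Atg5* (ENSMUSG00000038160; chr10:44268358-44364291, plus strand) encodes the protein that, joined to ATG12, helps to attach ATG8 proteins to lipid. Crypt FPKM was 17.4, 15.1 and 12.2 in wild-type and 18.9, 18.1 and 18.6 in knockout libraries. The knockouts lay close together and all above the wild-type libraries, of which replicate 1 came nearest. Means were 14.9 ± 2.61 and 18.5 ± 0.4 (SD, n = 3 each), with a log2 fold change of 0.32 (SE 0.147). It was 0.19 without wild-type replicate 3, and the groups overlapped under each of the 3 rescalings and with the gene-length trend removed, at 0.26 to 0.35. In tumors FPKM was 14.1, 14.6 and 17.7 in controls and 17.1, 16.4 and 17.7 in knockouts. Control replicate 3 reached the level of the knockouts, so the groups overlapped, and the log2 fold change of 0.15 (SE 0.106) was 0.24 without that library and 0.08 without control replicate 1.

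The ATG8 proteins are made as precursors, and ATG4 proteases cut them after a codon near the end of the reading frame to expose the site that is joined to lipid. The ends of the coding sequences are shown so that the 5 genes of the family can be compared at this site. They come from GENCODE M21 transcripts, start 15 codons before the marked codon and run through the stop codon, with the GGN codon at the cut in capitals.
Gabarap: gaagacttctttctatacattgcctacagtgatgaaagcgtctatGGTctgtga
Gabarapl1: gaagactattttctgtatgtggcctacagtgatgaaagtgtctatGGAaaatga
Gabarapl2: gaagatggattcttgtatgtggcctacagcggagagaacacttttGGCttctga
Map1lc3a: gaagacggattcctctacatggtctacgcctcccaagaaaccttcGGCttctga
Map1lc3b: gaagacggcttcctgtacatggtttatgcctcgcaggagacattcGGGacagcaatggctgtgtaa
The marked codon is number 116 in the 3 genes of the *Gabarap* group and number 120 in both *Map1lc3* genes. A single codon follows it before the stop in 4 of the genes, and 5 follow in *Map1lc3b*. Over the whole coding sequence, *Gabarap* and *Gabarapl1* were identical at 74.9% of aligned bases and *Map1lc3a* and *Map1lc3b* at 76%, with all other pairs at 51.4% to 63.8%. The longest identical run between any pair was 17 bases, in *Gabarap* and *Gabarapl1*.

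*Gabarap* (ENSMUSG00000018567; chr11:69991143-69994951, plus strand) encodes the founding member of its group, which acts in the closure of autophagosomes and their fusion with lysosomes. In crypts FPKM was 86.5, 105 and 111 in wild-type and 130, 123 and 127 in knockout libraries. All knockouts lay above all wild-type libraries, with wild-type replicate 1 set low and replicate 3 nearest to the knockouts. The means were 101 ± 13 and 127 ± 3.67 (SD, n = 3 each), and the log2 fold change was 0.33 (SE 0.14). In tumors FPKM was 88.2, 86.7 and 83.9 in controls and 100, 103 and 133 in knockouts. The groups were apart here too, with controls close together and knockout replicate 3 far above the other knockouts. The means were 86.3 ± 2.19 and 112 ± 18.1 (SD, n = 3 each), and the log2 fold change was 0.37 (SE 0.126). Both differences were among the values that chose the genes.

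Without knockout replicate 3 the *Gabarap* difference in tumors was 0.24. Leaving out a library gave 0.23 (without wild-type replicate 1) to 0.41 (without wild-type replicate 3) in crypts. Quantile normalization gave 0.19 in each tissue, and the groups remained apart under all rescalings tried. As for *Ulk1*, these ranges describe values that chose the genes and are no support for them. Counts behind these values were 2469 to 3902 fragments in crypts and 2314 to 3824 in tumors. *Gabarap* shares no exon bases with another gene of the annotation.

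*Gabarapl1* (ENSMUSG00000030161; chr6:129533160-129542346, plus strand) encodes the closest relative of GABARAP. Its crypt FPKM was 4.4, 4.48 and 9.03 in wild-type and 5.1, 6.32 and 4.24 in knockout libraries. Wild-type replicate 3 was the highest library by a wide margin and the groups overlapped. Its log2 fold change of -0.12 (SE 0.284) came with the opposite sign without wild-type replicate 3 (0.20) or knockout replicate 3 (0.01) and -0.29 without wild-type replicate 1. Tumor FPKM was 23.6, 19.6 and 20.5 in controls and 23.2, 20 and 27.9 in knockouts, and the groups overlapped with knockout replicate 3 on top. The log2 fold change of 0.15 (SE 0.139) shrank to 0.02 without that library and was 0.26 without knockout replicate 2. The gene shares 28.3% of its exon bases with *1700101I11Rik* on the opposite strand, whose mean FPKM was 0.0191 in crypts and 0.022 in tumors.

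*Gabarapl2* (ENSMUSG00000031950; chr8:111940703-111953612, plus strand) encodes GATE-16, a further member of the group that also serves traffic within the Golgi. In crypts FPKM was 17.8, 19.4 and 23.4 in wild-type and 20.5, 24.2 and 23 in knockout libraries, which overlapped. At 0.16 (SE 0.141), the log2 fold change was 0.08 without wild-type replicate 1 and 0.27 without wild-type replicate 3. In tumors FPKM was 18.4, 20.8 and 22.1 in controls and 20.2, 23.8 and 26.7 in knockouts, again with overlap. For tumors the log2 fold change was 0.20 (SE 0.126), 0.10 without knockout replicate 3 and 0.30 without knockout replicate 1. Its mean in wild-type crypts (20.2) and in control tumors (20.5) was alike side by side, unlike that of *Gabarapl1*. Its transcripts share 50-base stretches with processed pseudogenes, 8.81% with *Gm3724* (mean FPKM 1.24 in crypts and 0.661 in tumors), 4.67% with *Gm6051* (0.144 and 0.239) and 3.57% with *Gm5829* (0 and 0.0609).

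*Map1lc3a* (ENSMUSG00000027602; chr2:155276297-155278073, plus strand) encodes LC3A, a member of the LC3 group that decorates growing autophagosomes. Its crypt FPKM was 5.2, 8.2 and 11.6 in wild-type and 7.54, 6.32 and 6.45 in knockout libraries. The wild-type libraries held both the lowest and the highest value and the knockouts sat between them. Over all libraries the log2 fold change was -0.22 (SE 0.263), -0.50 without wild-type replicate 1 and 0.04 without wild-type replicate 3. Tumor FPKM was 34.7, 33.3 and 39.6 in controls and 35, 36 and 47.7 in knockouts. Replicate 3 was the highest library of each genotype, and the groups overlapped. The log2 fold change of 0.13 (SE 0.141) was -0.01 without knockout replicate 3 and 0.21 without knockout replicate 1.

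*Map1lc3b* (ENSMUSG00000031812; chr8:121590361-121598760, plus strand) encodes LC3B, the protein most used to follow autophagosomes. Crypt FPKM was 10.7, 11.5 and 10.7 in wild-type and 11.5, 12.8 and 10.8 in knockout libraries. The groups overlapped within a narrow range, with a log2 fold change of 0.09 (SE 0.115), 0.02 without knockout replicate 2 and 0.14 without knockout replicate 3. Tumor FPKM was 22.9, 21.9 and 23.7 in controls and 22.6, 22.1 and 25.9 in knockouts. These overlapped as well, and the log2 fold change of 0.04 (SE 0.0912) was -0.03 without knockout replicate 3, -0.04 after quantile normalization and -0.01 when rescaled without the 50 highest genes. The processed pseudogene *Gm6055* on chromosome 14 holds 279 of the 50-base stretches of *Map1lc3b* transcripts (3.67%), and reads from these stretches cannot be placed with certainty. *Gm6055* had an FPKM of 4.96, 4.33 and 18.6 in wild-type and 6.01, 10.6 and 4.71 in knockout crypts, and of 19.9, 20.4 and 14.7 in control and 23.7, 22.3 and 30.2 in knockout tumors. Its knockouts were all above the controls in tumors and overlapped with them in crypts. The pseudogenes *Gm12727* and *Gm6054* hold 1.84% and 1.46% of the stretches, with a mean FPKM of 0 and 0.438 in tumors. *Map1lc3b* also shares 0.772% of its exon bases with *Zcchc14* on the opposite strand, whose mean FPKM was 8.15 in crypts and 16 in tumors.

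The composition of the family differed between the tissues side by side. In crypts *Gabarap* made up 69.4%, 70.7% and 67% of the summed FPKM of the 5 genes in wild-type and 74.4%, 71.2% and 74.1% in knockout libraries. The knockouts all lay above the wild-type libraries, by a narrow gap between 70.7% and 71.2%. In tumors its share was 47%, 47.5% and 44.2% in controls and 49.9%, 50.3% and 50.9% in knockouts, without overlap. The share of *Map1lc3a* was 5.55% ± 1.4 in wild-type crypts and 19.2% ± 1.45 in control tumors, and that of *Gabarapl1* 4% ± 1.28 and 11.4% ± 0.981 (SD, n = 3 each). *Map1lc3b* took a lower share in every knockout tumor (12.2%, 12% and 12.5% against 11.2%, 10.8% and 9.92%). Its own FPKM overlapped between these groups, while the sum of the family was 188, 182 and 190 in controls and 201, 205 and 261 in knockouts. In crypts the sum was 125, 149 and 166 in wild-type and 175, 172 and 172 in knockout libraries, also without overlap. Both the share of *Gabarap* and this sum rest on the gene whose difference chose the list. Without *Gabarap* the sum of the other 4 genes overlapped in crypts (38.1, 43.6 and 54.8 against 44.7, 49.7 and 44.5) and in tumors (99.6, 95.7 and 106 against 101, 102 and 128).

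**Figure D3:**
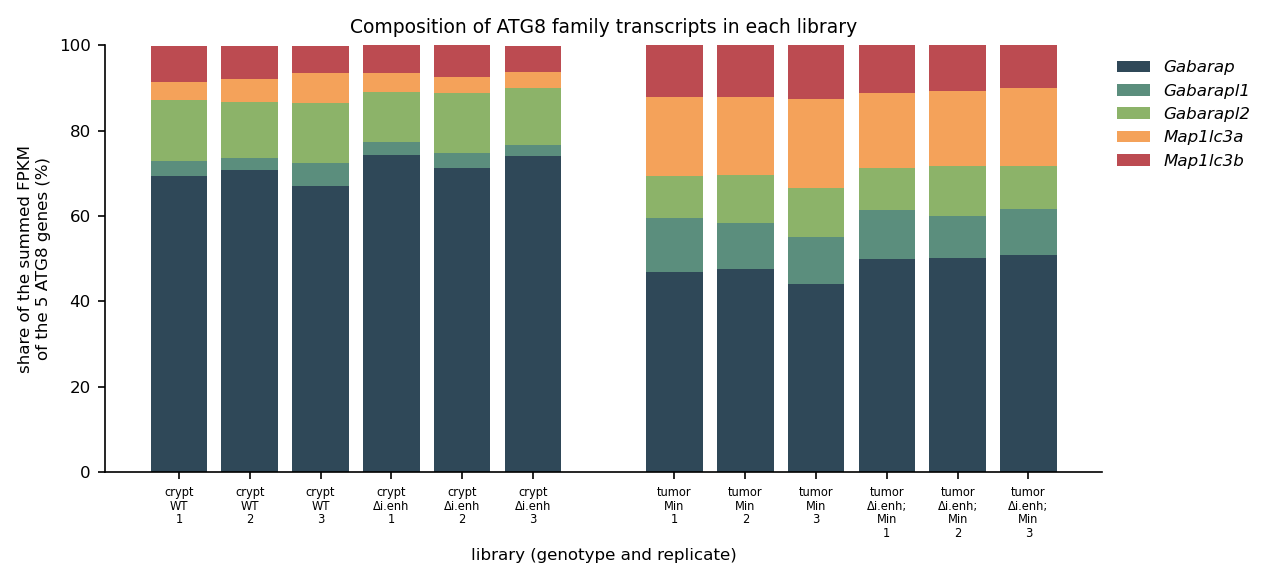
Share of each gene in the summed FPKM of the 5 ATG8 genes (y axis, %) for each of the 12 libraries, as stacked bars with crypts left and tumors right. *Gabarap* takes 67% to 74.4% in crypts and 44.2% to 50.9% in tumors, with the knockouts above the controls in each tissue.

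*Sqstm1* (ENSMUSG00000015837; chr11:50199366-50210827, minus strand) encodes p62, a receptor that ties ubiquitin-marked cargo to ATG8 proteins and is itself consumed by autophagy. In crypts FPKM was 28.7, 38.5 and 48.7 in wild-type and 32.9, 34.9 and 34.5 in knockout libraries. The wild-type libraries were widely spread (38.7 ± 10, SD, n = 3) around close-set knockouts (34.1 ± 1.05, SD, n = 3). The log2 fold change was -0.15 (SE 0.194), -0.34 without wild-type replicate 1 and 0.04 without wild-type replicate 3. In tumors FPKM was 85, 77.8 and 84.9 in controls and 89.2, 94.6 and 108 in knockouts. All knockouts lay above all controls, with replicate 3 the highest, and the log2 fold change was 0.23 (SE 0.103). It was 0.15 without knockout replicate 3, and after quantile normalization it was 0.05 and the groups overlapped. Of its exon bases, 17.3% are shared with *Mrnip* on the opposite strand, which had a mean FPKM of 0.419 in crypts and 0.767 in tumors.

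Libraries of the third number recur in these values. In crypts, wild-type replicate 3 was the highest of all 6 libraries for *Gabarapl1*, *Map1lc3a*, *Sqstm1* and *Becn1* and the lowest for *Atg5*, and it is the library with the high Paneth cell sum. In tumors, knockout replicate 3 was the highest for all 5 ATG8 genes, *Sqstm1* and *Atg7*. Tumor control replicate 3 and knockout replicate 3 had an FPKM of 114 and 61.4 for *Xist*, where the other tumors had at most 0.0623 (a gene looked at after its values were seen).

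The difference between genotypes varied with gene length. Over 5 equal bins of all tested genes by length, from shortest to longest, the median log2 fold change was 0.04, 0.09, 0.04, -0.01 and -0.08 in tumors, and 0, 0.05, 0.03, 0.01 and -0.02 in crypts. Among the tumors, knockout replicate 3 had median deviations from the mean of 0.06, 0.12, 0.05, -0.01 and -0.10, and control replicate 3 ran the other way (-0.08, -0.09, -0.03, 0.02 and 0.08). *Gabarap*, at 1844 bases, falls in the bin with the highest median, as do *Gabarapl1*, *Gabarapl2* and *Atg5*, whereas *Ulk1*, at 6488 bases, falls in the next to longest and *Atg7*, *Becn1* and *Map1lc3b* in the longest. With the trend of each library removed, an alternative added after the data were seen, *Gabarap* was at 0.28 in crypts and 0.27 in tumors, *Ulk1* in tumors at -0.25 and *Sqstm1* in tumors at 0.19. *Becn1* in tumors was at 0.20. The groups of these genes stayed apart in those tissues. Other values in tumors came nearer to 0, *Gabarapl1* at 0.06, *Map1lc3a* at 0.04, *Atg5* at 0.07 and *Gabarapl2* at 0.12, while *Map1lc3b* was at 0.09 and *Atg7* at 0.06. The cause of the trend was not tested.

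**Figure D4:**
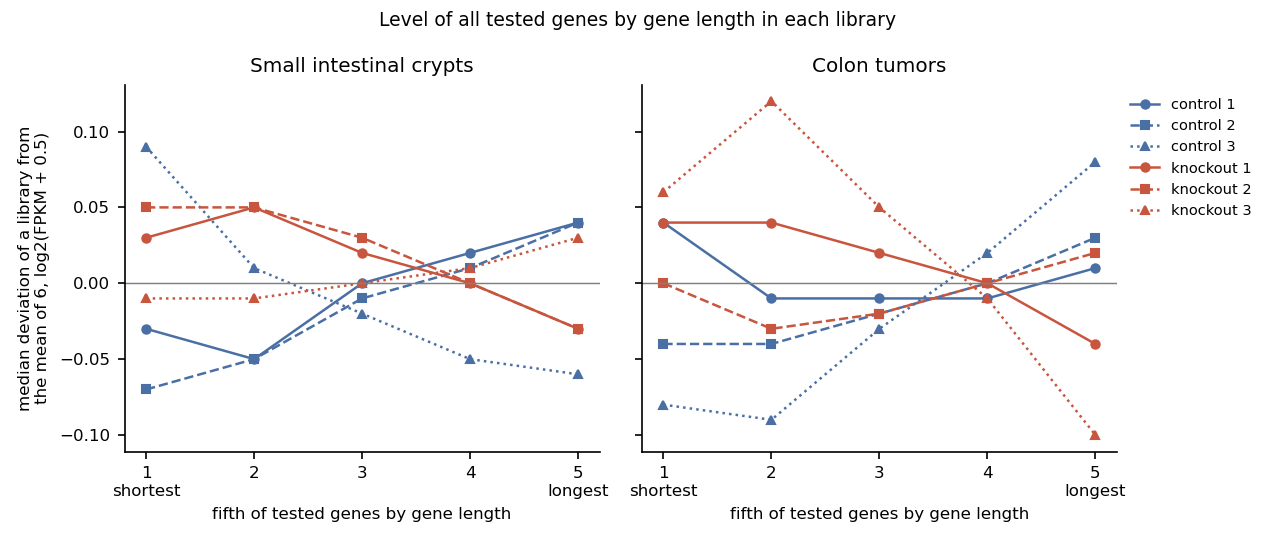
Median deviation of each library from the mean of 6 on the log2(FPKM + 0.5) scale (y axis) for 5 bins of the tested genes by gene length (x axis), with controls in blue and knockouts in red. In tumors, knockout replicate 3 runs from 0.12 in bin 2 to -0.10 in the longest genes and control replicate 3 from -0.09 to 0.08.

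Of 91 other genes of the pathway in 8 groups by role, 88 were tested in crypts and 91 in tumors, and limma called 0 in either tissue at an adjusted p under 0.05. In crypts 49 were above 0 and 39 below, with a median log2 fold change of 0.02, and 1 in each direction had an unadjusted p under 0.05 (3.48% and 2.36% of all tested genes). In tumors 45 were above and 46 below 0, with a median of 0.00, and 7 higher and 2 lower genes had an unadjusted p under 0.05 (8.46% and 6% of all tested genes). By voom the counts at this threshold were 3 and 10. Which genes passed this threshold moved with scaling. In tumors 3 were higher and 5 lower with equal totals or without the 50 highest genes. After quantile normalization 2 were higher and 3 lower there, and in crypts 0 were higher and 4 lower without the 50 highest genes. None of the genes named below by this threshold changed sign over the 17 alternatives. Their groups did not overlap, as the naming required, so leaving out a library could not change the sign. Left-out libraries moved the crypt count to 0 (without knockout replicate 1 or 2), 1 (without wild-type replicate 2) and 5 (without wild-type replicate 1). The tumor count went to 14 without knockout replicate 2, 5 without control replicate 1, 3 without knockout replicate 3 or control replicate 3, and 1 without control replicate 2. Knockouts lay above all controls for 6 of these genes in crypts and 11 in tumors, beside 6.79% and 11.4% of all tested genes, and below for 4 and 11, beside 5.15% and 10.6%.

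The 4 other genes of the ULK1 complex overlapped between genotypes in both tissues, with medians of 0.06 in crypts and -0.09 in tumors. In tumors *Ulk2* (-0.12, SE 0.113), *Rb1cc1* (-0.11, SE 0.115) and *Atg13* (-0.08, SE 0.0875) were below 0, and *Atg101* was at 0.24 (SE 0.16). Around *Becn1*, the 7 other genes of the PI3-kinase complex had medians of -0.02 and -0.10, and in knockout tumors *Pik3c3* (-0.19) and *Pik3r4* (-0.10) were lower in every library, with an unadjusted p above 0.05. The inhibitor *Rubcn* was higher there (log2 fold change 0.25; limma, unadjusted p = 0.045, adjusted p = 0.34). In the group of *Atg5* and *Atg7*, the ATG8-conjugating enzyme *Atg3* had an FPKM of 12.7, 11 and 12.8 in control and 15.2, 14.1 and 13.9 in knockout tumors (0.24, limma unadjusted p = 0.0397, adjusted p = 0.335). The protease gene *Atg4d*, whose product cuts ATG8 proteins, had an FPKM of 6.23, 6.44 and 6.42 against 7.31, 7.23 and 9.29 (0.29, limma unadjusted p = 0.0454, adjusted p = 0.34), and its difference was 0.18 without knockout replicate 3. All knockouts lay above all controls for both.

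Next to *Sqstm1*, the other cargo receptors had a median of 0.02 in crypts (14 tested) and -0.03 in tumors (15 tested). *Tex264*, a receptor for endoplasmic reticulum, was higher in knockout tumors (0.38, limma unadjusted p = 0.0186, adjusted p = 0.302). *Wipi2*, which brings the conjugation machinery to the membrane, had an FPKM of 12.2, 12.1 and 11.7 in control and 10.6, 9.86 and 10.7 in knockout tumors (-0.20, limma unadjusted p = 0.0424, adjusted p = 0.337), and -0.11 with the gene-length trend removed. At the lysosome, *Ctsd* in crypts was 40.8, 44.3 and 46.8 in wild-type against 56.5, 53.7 and 53.8 in knockouts (0.31, limma unadjusted p = 0.0275, adjusted p = 0.806), and 0.20 after quantile normalization. The tethering factor *Tecpr1* was 3.29, 4.09 and 4.84 against 3.09, 3.04 and 2.79 (-0.38, limma unadjusted p = 0.0438, adjusted p = 0.845). In tumors *Neu1* (0.28, limma unadjusted p = 0.0144, adjusted p = 0.295) and *Ctsl* (0.23, unadjusted p = 0.0424, adjusted p = 0.337; 0.11 after quantile normalization) were higher in every knockout. In crypts these genes overlapped and lay the other way, *Neu1* at -0.64 (11.2, 26.9 and 40.9 against 14.1, 14.7 and 15.3) and *Ctsl* at -0.33. The membrane protein gene *Lamp2* had an FPKM of 74.4, 82.6 and 93.3 in control and 58.7, 73 and 55.5 in knockout tumors, lower in all 3 knockouts (-0.42, limma unadjusted p = 0.0198, adjusted p = 0.303), and overlapped in crypts at 0.09. *Ctsd* overlapped in tumors at -0.04. The range of the adjusted p over 17 alternatives was 0.429 to 1 for the pair in crypts and 0.207 to 0.634 for the genes named in tumors. An unadjusted p under 0.05, by which they were named, held in 15 of the 17 alternatives for *Neu1*, 14 for *Tex264* and *Lamp2*, 9 for *Wipi2* and *Ctsd*, 8 for *Rubcn*, 7 for *Atg4d*, *Ctsl* and *Tecpr1*, and 5 for *Atg3*.

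**Figure D5:**
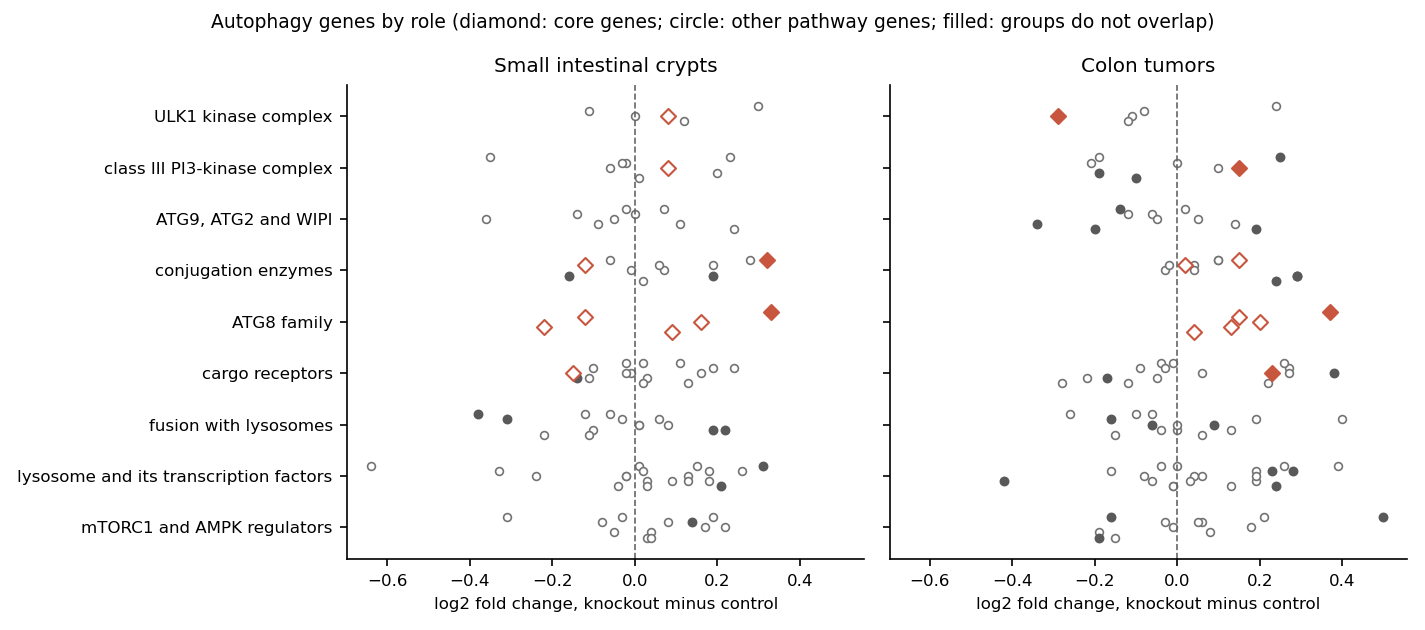
Log2 fold change (x axis, knockout minus control) of the autophagy core genes (diamonds) and the other pathway genes (circles) in groups by role, for crypts and tumors; filled symbols are genes whose groups do not overlap. *Gabarap* lies at the right of the ATG8 family in both tissues and *Ulk1* at the left of its complex in tumors. The other genes spread around 0, and some lie further out in tumors. Among these are *Prkaa2* (0.5) to the right of *Gabarap* (0.37) and *Lamp2* (-0.42) to the left of *Ulk1* (-0.29).

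The genes whose values followed those of *Gabarap* most closely over the 12 libraries, each tissue centred on its own mean, were *Epn1* (Pearson r = 0.97), *Atg4d* (0.97), *Apeh* (0.95) and *Rab8a* (0.93) among 11563 genes. *Atg4d* was in the pathway list. Among the core genes, *Gabarap* was closest to *Gabarapl2* (0.75), *Becn1* (0.62), *Map1lc3b* (0.54) and *Sqstm1* (0.51), and to *Ulk1* the value was -0.23. For *Ulk1* the closest genes were *BC024978* (0.91), *Dhcr7* (0.87), *Notch1* (0.86) and *Pspc1* (0.85). The libraries share the genotype difference that chose both genes, so these values describe likeness and carry no test.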

How the data were processed

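RNA-seq values were taken as the authors deposited them, as FPKM in a table for each tissue. According to the submitters' processing notes, reads were trimmed with cutadapt, aligned to mm10 with HISAT2 and processed with Cufflinks 2.2.1 and DESeq2, and the methods of the paper also name featureCounts. The step that produced FPKM and the use of strand in counting were not stated. Over genes above 0 in every library of a tissue, the median ratio to the geometric mean was 1.0073 in each crypt library and 1.0045 in each tumor library. By this measure the deposited values were already scaled alike, and the rescalings tried here depart from it. FPKM multiplied by gene length came in whole multiples of a single step in every library, within 0.1 of a fragment, from which fragment counts were recovered. Sums over all genes gave the depth.

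Each tissue was fitted alone with limma 3.58.1 (R 4.3.3), knockout against control, on log2(FPKM + 0.5) with a variance trend, for every gene that averaged 0.5 FPKM or more, and p-values were adjusted by Benjamini-Hochberg over all tested genes. SD refers to the 3 libraries of a group. SE is that of the limma fit of 3 against 3 libraries. It draws on the variance of other genes, so it differs from an SE of the gene's own values alone. The fit was tried on simulated data. The 10 autophagy core genes were described without a test. The members, the list of other pathway genes and the marker lists (epithelium, crypt stem cells, Paneth cells, goblet cells, small intestinal enterocytes, colonocytes, fibroblasts, smooth muscle, endothelium, myeloid cells, T cells, B and plasma cells, stomach) were chosen with earlier results of these data known. Other pathway genes were named where the unadjusted p was under 0.05, the groups did not overlap and FPKM averaged 1 or more. Up to 6 were taken per tissue and direction by smallest p. *Ulk2*, *Rb1cc1*, *Atg13*, *Atg101*, *Pik3c3*, *Pik3r4*, *Atg16l2* and *Atg9b* were also named without meeting this rule. Alternatives were pseudocounts of 0.1 and 1, other filters, no variance trend, voom on recovered fragments, equal totals, quantile normalization, rescaling without the 50 highest genes, a replicate block and leaving out each library. Removal of a lowess trend with gene length in each library was added after the data were seen. Likeness was the Pearson correlation over 12 libraries with each tissue centred on its mean, and the 4 closest genes were named. Promoters came from RefSeq (GRCm38.p6), and gene positions, exons and coding sequences from GENCODE M21, against which the positions and lengths of all 10 genes matched.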

Additional observations from a re-analysis of the deposited data

Results flagged for a closer look

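*Atg16l2*, a relative of *Atg16l1* whose product binds ATG5, had log2 fold changes of opposite sign in the tissues, neither with an unadjusted p under 0.05. Its log2 fold change was -0.16 in crypts (FPKM 1.22, 0.996 and 1.1 in wild-type against 0.907, 0.937 and 0.95 in knockout libraries), with all knockouts below all controls (SE 0.165; limma unadjusted p = 0.355, adjusted p = 0.916). It was 0.29 in tumors (1.78, 1.9 and 1.72 against 1.91, 2.39 and 2.68), with all knockouts above all controls (SE 0.15; limma unadjusted p = 0.0986, adjusted p = 0.413). Over 17 alternatives the crypt value ran from -0.24 (voom) to -0.09 (quantile normalization) and the tumor value from 0.20 (without knockout replicate 3) to 0.40 (without knockout replicate 1). The difference between the tissues was not tested.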

How the results depend on the processing

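With 3 mice per group, small differences may have gone unresolved, and the cause was not tested for any value that moved. Genes with an adjusted p under 0.05 in crypts were 0 to 3 with 1 library left out (3 without wild-type replicate 3), and in tumors 1 without a variance trend. Genes with an unadjusted p under 0.05 in crypts were 1349 with no filter and 458 (without knockout replicate 1) to 1341 (without wild-type replicate 1) with 1 library left out. In tumors they were 3020 with no filter and 1396 (without control replicate 2) to 2752 (without control replicate 1) with 1 library left out. Other pathway genes at that threshold in crypts were 0 after quantile normalization, 1 with the replicate block, 4 when rescaled without the 50 highest genes, 1 with the gene-length trend removed and 0 to 5 with 1 library left out. In tumors they were 4 without a variance trend, 5 after quantile normalization, 3 with the replicate block and 1 to 14 with 1 library left out. Their median log2 fold change was -0.03 in crypts when rescaled without the 50 highest genes, and in tumors -0.04 after quantile normalization, -0.05 with equal totals and -0.05 without the 50 highest genes. By correlation, replicate numbers did not pair libraries (same-number correlations of -0.05, -0.12 and 0.04 in crypts and 0.05, -0.09 and 0.05 in tumors), and the replicate block gave 0 adjusted genes in both tissues. Tumor control replicate 3 and knockout replicate 3 did share *Xist* (114 and 61.4).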

Other observations

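Beyond the core genes, *Atg9b* separated the tissues side by side. It had an FPKM of 0.327, 0.0829 and 0.145 in wild-type and 0.0778, 0.212 and 0.126 in knockout crypts, and of 53.1, 42.2 and 36.8 in control and 48.9, 53.9 and 41.7 in knockout tumors. The genotypes overlapped in both tissues. It was picked out after its values were seen. The span of the gene overlaps by 294 bases with that of *Nos3* on the opposite strand, whose mean FPKM was 0.0105 in crypts and 1.71 in tumors.

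*Xist*, also picked out after its values were seen, was at 114 in tumor control replicate 3 and 61.4 in tumor knockout replicate 3, and at most at 0.0623 in the other tumors and 0.0548 in crypts. Stomach markers were high only in wild-type crypt replicates 1 and 2, at sums of 38 and 37.5.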
